A study of Mus musculus with 5 samples.

Results

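The 8 cytotoxic effector genes Gzma, Gzmb, Gzmk, Prf1, Nkg7, Ifng, Fasl and Klrk1 were followed through lung lymphocytes before and after bleomycin injury. They were chosen by gene symbol, and all 8 were found among the 28693 features counted. The lungs came from Ms4a3-CreER;R26-tdT mice, in which the Ms4a3 promoter drives a tamoxifen-dependent Cre in granulocyte and monocyte precursors, so that the tdT label is aimed at myeloid cells and not at lymphocytes. PBS-treated (sham) lungs gave 1 library, and lungs taken 3, 7, 14 and 28 days after bleomycin gave 1 library each. All 5 groups share the genotype, and the labels give neither the age of the mice nor how many mice went into a library. With 1 library per time point, differences between time points carry no test, and their intervals cover counting error only. NK cells, CD8 T cells, CD4 T cells and γδ T cells were identified by marker genes, none of which is among the 8.

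Cytotoxic lymphocytes kill by releasing granules into the contact with a target cell. Perforin (Prf1) opens the target membrane, granzymes (Gzma, Gzmb, Gzmk) are the serine proteases that enter, and Nkg7 is a membrane protein of the granules that takes part in their release. The Fas ligand (Fasl) kills through a death receptor, interferon-γ (Ifng) acts on macrophages and other cells at a distance, and NKG2D (Klrk1) is an activating receptor that recognizes stress-induced ligands.

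The genes lie on 6 chromosomes of GRCm38 (mm10), according to the GENCODE annotation, in which all 8 are protein coding. Gzma (ENSMUSG00000023132, chr13:113093825-113100981, minus strand) and Gzmk (ENSMUSG00000042385, chr13:113171608-113225908, minus strand) are neighbors separated by 70626 bases, whereas Gzmb (ENSMUSG00000015437) lies at chr14:56258838-56262260 on the minus strand. Prf1 (ENSMUSG00000037202) lies at chr10:61297833-61304680 and Ifng (ENSMUSG00000055170) at chr10:118441046-118445892, both on the plus strand. Nkg7 (ENSMUSG00000004612) is at chr7:43437073-43438249 on the plus strand, Fasl (ENSMUSG00000000817) at chr1:161780689-161788495 and Klrk1 (ENSMUSG00000030149) at chr6:129610323-129623864, both on the minus strand. The bases before the RefSeq starts of Gzma, Gzmb, Gzmk and Prf1 are shown because the 3 proteases and perforin divide the lymphocyte classes differently, as the levels described next show. Each window holds the 250 bases before the RefSeq start of the gene, with chr13:113100982-113101231 for Gzma, chr14:56262335-56262584 for Gzmb, chr13:113180966-113181215 for Gzmk and chr10:61297586-61297835 for Prf1. RefSeq and GENCODE starts can differ, and for Gzmk the RefSeq window lies inside the span that GENCODE gives the gene. Capitals mark the letters TGTGGT, the core bound by RUNX factors, and AGGTGT, the core of T-box factors, on either strand, and the 2 kinds of match do not overlap.
Gzma: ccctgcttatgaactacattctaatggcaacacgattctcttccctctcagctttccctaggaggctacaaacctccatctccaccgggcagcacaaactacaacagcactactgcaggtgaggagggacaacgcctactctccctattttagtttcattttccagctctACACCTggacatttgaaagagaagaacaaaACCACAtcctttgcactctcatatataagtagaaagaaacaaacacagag
Gzmb: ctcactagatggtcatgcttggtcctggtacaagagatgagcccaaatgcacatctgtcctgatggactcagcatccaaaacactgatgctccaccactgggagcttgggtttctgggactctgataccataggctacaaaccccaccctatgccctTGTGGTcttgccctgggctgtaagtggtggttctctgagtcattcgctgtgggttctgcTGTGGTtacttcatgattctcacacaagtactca
Gzmk: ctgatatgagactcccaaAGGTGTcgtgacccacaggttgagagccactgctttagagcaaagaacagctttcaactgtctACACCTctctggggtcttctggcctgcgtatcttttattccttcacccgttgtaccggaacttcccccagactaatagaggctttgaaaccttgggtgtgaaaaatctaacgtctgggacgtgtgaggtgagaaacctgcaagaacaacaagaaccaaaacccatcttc
Prf1: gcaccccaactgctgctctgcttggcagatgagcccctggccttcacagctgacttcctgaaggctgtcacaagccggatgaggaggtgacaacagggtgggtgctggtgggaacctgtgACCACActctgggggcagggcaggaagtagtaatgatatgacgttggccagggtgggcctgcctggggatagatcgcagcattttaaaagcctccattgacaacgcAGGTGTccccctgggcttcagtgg

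The RUNX letters were present in 5 of the 8 windows (Gzma, Gzmb, Prf1, Nkg7 and Klrk1), against 14.0% of 32851 RefSeq windows of the same length (GRCm38.p6). The T-box letters were present in 4 of the 8 (Gzma, Gzmk, Prf1 and Nkg7), against 11.8% of all windows. Gzmb held 2 RUNX matches and no T-box match, whereas its relative Gzmk held 2 T-box matches and no RUNX match. The AP-1 letters TGANTCA occurred in 1 of the 8 windows, that of Gzmb, against 6.75% of all, and the NFAT letters GGAAAA in 2 of the 8, those of Gzma and Fasl, against 20.4%. Ifng held none of the 4 in this window. Such matches describe letters only, and no binding was measured.

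Of 52800 barcodes, 44772 passed the filters, with 7757 to 10280 per library and total UMIs per library of 89769386 to 167506186. The 4 classes held 625 NK cells, 1833 CD8 T cells, 972 CD4 T cells and 773 γδ T cells. From sham to day 28, NK cells numbered 131, 337, 17, 80 and 60, CD8 T cells 169, 603, 371, 431 and 259, CD4 T cells 110, 184, 199, 224 and 255, and γδ T cells 17, 23, 64, 296 and 373. The 17 NK cells of day 7 and the 17 γδ T cells of the sham library were too few to enter the tests. No barcode of the day 7 library had fewer than 4624 UMIs, whereas the other 4 libraries began at 500 to 502, so that cells under 4624 UMIs were missing from the day 7 library alone. Between 22 and 41 barcodes were shared by a pair of libraries, and at most 1 of them was a cell of the 4 classes in both.

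Some genes that the gates did not use followed the classes, and others did so in part. Klra8, an NK receptor, was at 444 to 795 CPM (1000000 times the UMIs of the gene over all UMIs of a class in a library) in NK cells and at 3.07 or less in the other classes. Tcrg-C1, a γδ receptor chain, was at 675 to 1608 CPM in γδ T cells and at 8.20 or less elsewhere. Cd40lg, a helper ligand, was at 17.8 to 113 CPM in CD4 T cells and at 7.71 or less in CD8 T cells. In γδ T cells Cd40lg reached 35.6 CPM, within the range of CD4 T cells. Trbc2, an αβ receptor chain, was at 582 to 1038 CPM in γδ T cells, against 984 to 1895 in CD8 T cells, so that these ranges overlapped. RNA of other cells was also present. Lyz2, Chil3, S100a8, Sftpc and Ighm, which lymphocytes other than B cells should lack, summed to 477 to 3870 CPM in NK cells, 477 to 2465 in CD8 T cells, 699.5 to 2885 in CD4 T cells and 456 to 3555 in γδ T cells, and their lowest sum was at day 3 in each class. Of the 11 markers of other lineages that the gates limited to 1 UMI per cell, 0 to 10 were at 0 in a class and library. Their part in the results was not tested.

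**Figure D1:**
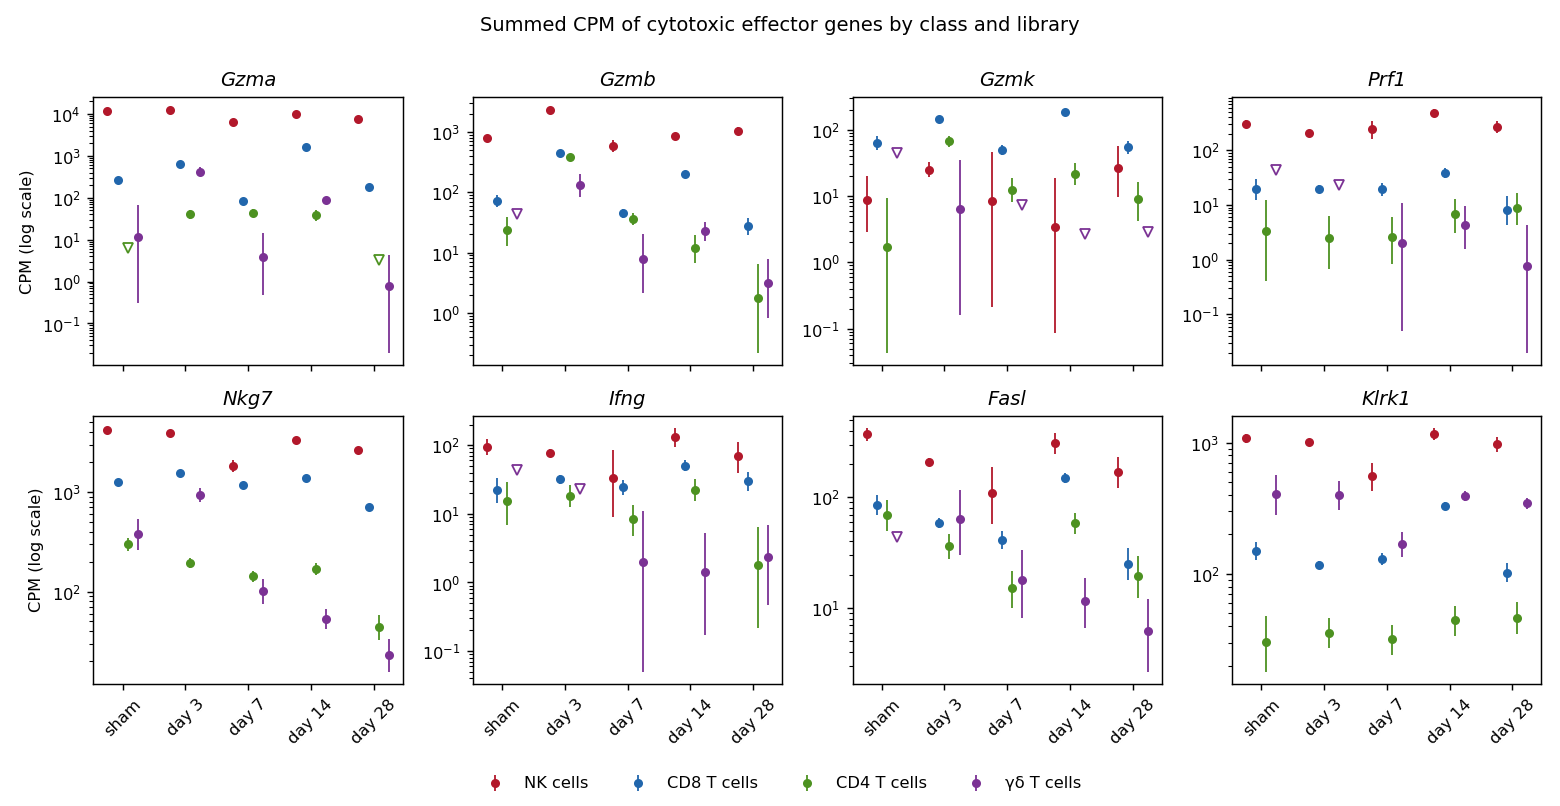
CPM of the 8 genes (log axis, 1 panel per gene) in NK, CD8 T, CD4 T and γδ T cells of the 5 libraries; bars are exact 95% Poisson intervals, and open triangles give the upper limit where no UMI was counted. NK cells lie highest in 7 panels and CD8 T cells in that of Gzmk, whereas γδ T cells come second for Klrk1.

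Gzma, the tryptase of the granules, was above all a transcript of NK cells. It reached 11969 CPM in NK cells of the sham library, 12727 on day 3, 6576 on day 7, 10072 on day 14 and 7687 on day 28. CD8 T cells had 264, 642, 84.4, 1601 and 180.4 CPM in the same order. The ranges of the 2 classes did not overlap, and within libraries Gzma was higher in NK cells by 4.50 ± 0.67 (log2, SE; adjusted p = 3.82e-05, edgeR, 4 libraries). CD4 T cells had no UMI of Gzma in the sham and day 28 libraries and 38.2 to 44.2 CPM at days 3, 7 and 14. On days 7 and 14 they rest on few cells, since 1 CD4 T cell held 72 of the 85 UMIs of day 7 and 1 held 38 of the 51 UMIs of day 14. On day 3, 14.1% of CD4 T cells had a Gzma UMI, against 10.2% of B cells, which should lack it. With each cell reduced to 2000 UMIs, these shares were 8.15% and 3.75%. At full depth, Gzma was found in 5 of 199 CD4 T cells and 2 of 267 B cells on day 7. On day 14 the counts were 13 of 224 and 5 of 124. The level in B cells differed between libraries, from 0.490 to 81.1 CPM. No CD4 value lay above the highest of these, which is not a comparison within a library. CD8 T cells exceeded CD4 T cells by 4.07 ± 0.74 on the log2 scale (adjusted p = 0.00103, edgeR, higher in 5 of 5 libraries).

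Gzmb, the protease that cuts after aspartate and can activate caspases, was shared more widely. NK cells had 797 CPM in the sham library, 2309.6 on day 3, 586 on day 7, 849 on day 14 and 1046 on day 28. CD8 T cells had 71.9, 445, 44.8, 199.6 and 27.3 CPM, below NK cells in every library. Gzmb was higher in NK than in CD8 T cells by 3.08 ± 0.47 (log2, SE; adjusted p = 5.39e-05, edgeR). CD4 T cells had 23.6, 379, 36.4, 12 and 1.78 CPM, so that CD8 and CD4 T cells overlapped. Their difference of 1.37 ± 0.48 missed the threshold (adjusted p = 0.0727, edgeR) although CD8 T cells were higher in 5 of 5 libraries. At day 3 the ratio of CD8 to CD4 T cells was smallest, with a log2 ratio of 0.23, and without the day 3 library the difference was 2.11 (adjusted p = 0.0272, edgeR).

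Gzmk, a tryptase like Gzma, followed the opposite order and belonged to CD8 T cells. It had 63.9 CPM in CD8 T cells of the sham library, 143 on day 3, 49.8 on day 7, 185 on day 14 and 54.0 on day 28. NK cells had 8.70, 25.0, 8.38, 3.36 and 26.1 CPM, and γδ T cells had a single UMI of Gzmk in all 5 libraries. Among the 8 genes Gzmk was the one lower in NK than in CD8 T cells, by a log2 difference of -3.17 ± 0.38 (adjusted p = 3.76e-06, edgeR, lower in 4 of 4 libraries). CD8 T cells exceeded CD4 T cells, which had 1.69 to 67.6 CPM, by 2.29 ± 0.28 (adjusted p = 1.07e-05, edgeR). Thus the neighbors Gzma and Gzmk stood apart in opposite directions between NK and CD8 T cells.

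Prf1 separated NK cells from all T cells. It had 306 CPM in NK cells of the sham library, 208 on day 3, 243 on day 7, 476 on day 14 and 270.2 on day 28. CD8 T cells had 19.5, 19.7, 19.4, 38.9 and 8.20 CPM, a difference of 3.52 ± 0.20 on the log2 scale (adjusted p = 1.19e-10, edgeR, NK cells higher in 4 of 4 libraries). In CD4 T cells, Prf1 was at 2.46 to 8.90 CPM, from 2 to 10 UMIs per library, and it was lower than in CD8 T cells by the fit (2.34 ± 0.30, adjusted p = 2.20e-05, edgeR) in 4 of 5 libraries. The exception was day 28, at which CD4 T cells had 8.90 CPM and CD8 T cells 8.20 CPM.

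Nkg7 was found in NK and CD8 T cells alike, and its difference between them was among the smaller ones. NK cells had 4241, 3884, 1835, 3318 and 2623 CPM from sham to day 28, and CD8 T cells had 1265, 1545, 1170.4, 1380.5 and 704 CPM. NK cells were higher in 4 of 4 libraries, by 1.27 ± 0.44 (log2, SE; adjusted p = 0.0476, edgeR), which lies close to the threshold and was lost under DESeq2 (adjusted p = 0.158). Without the sham, day 14 or day 28 library, the adjusted p of edgeR was 0.119, 0.0872 and 0.138. CD8 T cells had more Nkg7 than CD4 T cells, which had 300.3, 194, 142, 169 and 43.6 CPM, by 3.11 ± 0.45 (adjusted p = 9.32e-05, edgeR, 5 of 5 libraries).

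The cytokine and the death ligand had the same order of classes. Ifng was at 95.8, 77.0, 33.5, 131 and 69.7 CPM in NK cells and at 22.2, 31.7, 24.4, 50.3 and 30.1 CPM in CD8 T cells. The difference was 1.17 ± 0.23 on the log2 scale (adjusted p = 0.000661, edgeR, 4 of 4 libraries). CD4 T cells had 1.78 to 22.5 CPM, below CD8 T cells by 1.42 ± 0.24 (adjusted p = 0.000473, edgeR). Fasl had 371, 209, 109, 309 and 169.9 CPM in NK cells and 85.2, 59.1, 41.3, 151 and 25.3 CPM in CD8 T cells, higher in NK cells by 1.51 ± 0.25 (adjusted p = 0.000123, edgeR). For Fasl the CD8 and CD4 T cells overlapped, with 15.1 to 69.2 CPM in CD4 T cells, and differed by 1.02 ± 0.25 (adjusted p = 0.0121, edgeR, higher in CD8 T cells in 5 of 5 libraries). DESeq2 gave an adjusted p of 0.104 for that last difference.

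Klrk1 was the gene for which γδ T cells ranked above CD8 T cells. NK cells had 1074, 1005, 553, 1164 and 972 CPM from sham to day 28, γδ T cells 403, 399, 168, 392 and 344, CD8 T cells 150.0, 117, 129.6, 327 and 102, and CD4 T cells 30.4 to 46.3. Within libraries γδ T cells exceeded CD4 T cells by 2.87 ± 0.22 (log2, SE; adjusted p = 2.17e-08, edgeR, 4 of 4 libraries), and NK cells exceeded CD8 T cells by 2.40 ± 0.19 (adjusted p = 1.51e-08, edgeR). The CD8 T cells were lower than γδ T cells by a log2 difference of -0.70 ± 0.20 (adjusted p = 0.0133, edgeR, 4 of 4 libraries), a call that was lost without the day 3 library (adjusted p = 0.104, edgeR) and without day 28 (adjusted p = 0.123). Klrk1 also had the widest spread beyond the 4 classes. Cells with markers of conventional dendritic cells had 71.7 CPM of Klrk1 in the sham library, 259 on day 3, 136 on day 7, 135 on day 14 and 139 on day 28, against 3.92 to 28.0 CPM in B cells. Together the 4 classes held a median of 38.6% of a library's Klrk1 UMIs, compared with 55.8% to 75.4% for the other 7 genes.

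**Figure D2:**
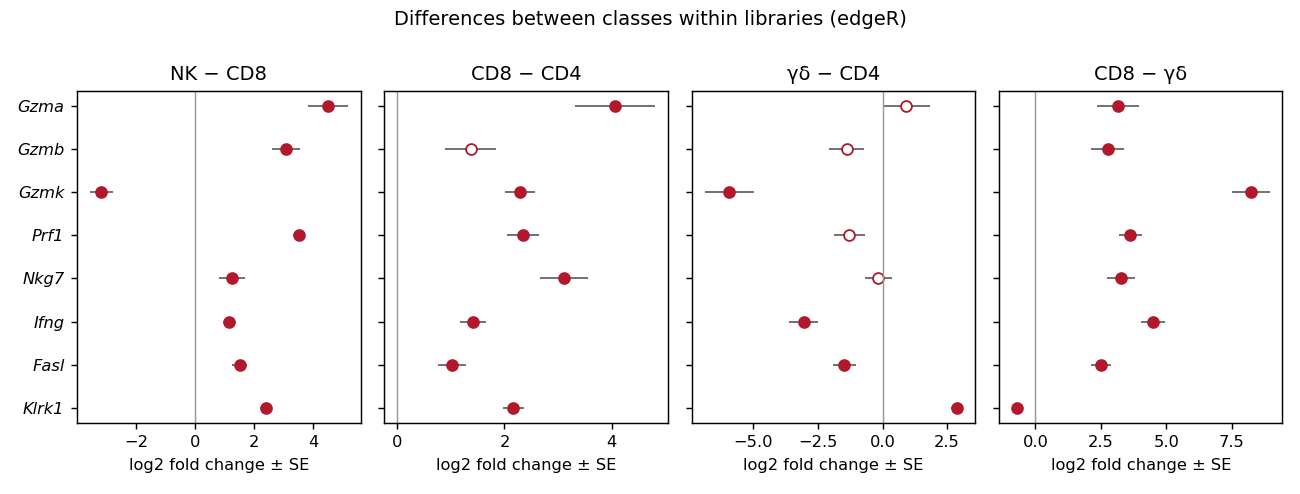
log2 fold changes of the 8 genes (rows) in the 4 comparisons within libraries (panels), with bars of 1 SE from edgeR; filled points have an adjusted p below 0.05. Gzmk is alone on the negative side between NK and CD8 T cells, as Klrk1 is between CD8 and γδ T cells.

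Counted over the 8 genes, 7 were higher and 1 (Gzmk) was lower in NK than in CD8 T cells, where 10.1% and 11.2% of the 9263 genes tested were called in these directions. Between CD8 and CD4 T cells, 7 were higher and 0 were lower in CD8 T cells, against 4.86% and 5.58% of all genes. Between γδ and CD4 T cells, Klrk1 was higher and 3 genes were lower, against 8.12% and 8.46%. The 3 lower genes were Gzmk, Ifng and Fasl, with log2 differences of -5.93 ± 0.96, -3.06 ± 0.56 and -1.47 ± 0.43 (adjusted p = 0.000169, 0.000651 and 0.0228, edgeR). For Gzmk the fitted value rests on 1 UMI in γδ T cells and is no measure of the size. That for Ifng rests on 6 UMIs, and on day 28 γδ T cells were above CD4 T cells (2.32 against 1.78 CPM). Fasl was higher in γδ than in CD4 T cells in 2 of 4 libraries. The call for Fasl was lost without the sham, day 14 or day 28 library (adjusted p = 0.0544, 0.456 and 0.121, edgeR), that for Ifng without day 14 (adjusted p = 0.0702, edgeR), and Nkg7 was lower without day 3 (-1.48, adjusted p = 0.00634, edgeR). The sham library has no sum of γδ T cells in the test and bears on this comparison only through the joint fit of the 4 classes. Between CD8 and γδ T cells, 7 were higher in CD8 T cells and Klrk1 was lower, against 10.7% of all genes in each direction. Among the 7, Gzma differed by 3.14 ± 0.79 (adjusted p = 0.0061, edgeR), a call lost without day 14 (2.53, adjusted p = 0.079), and Prf1 by 3.62 ± 0.45 (adjusted p = 4.7e-06, edgeR). The value for Prf1 rests on 8 UMIs in γδ T cells. The median log2 difference of the 8 genes was 1.95 for NK against CD8 T cells, 2.23 for CD8 against CD4, -1.34 for γδ against CD4 and 3.21 for CD8 against γδ T cells, whereas that of all genes lay between -0.03 and 0.02. The comparisons share classes, so that their counts are not independent, and the libraries compared are different time points, not replicates of 1 condition.

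The share of cells with a UMI was compared after each cell was reduced to 2000 UMIs, which left 601 NK, 1811 CD8 T, 959 CD4 T and 712 γδ T cells (24, 22, 13 and 61 were shallower). B cells, which should lack these genes, were the background, with a median depth of 3279 to 7142 UMIs against 3388 to 5935 in NK and 4946 to 8988 in CD8 T cells. Gzma was detected in 96.9% of sham NK cells (exact 95% interval 92.1% to 99.1%), 93.4% on day 3, 64.7% on day 7, 97.4% on day 14 and 80.4% on day 28. In B cells it was detected in 4.44%, 3.75%, 0.749%, 0.833% and 0% of cells in the same order, the last a count of 0 of 405 cells that allows up to 0.741%. Prf1 was detected in 39.4%, 30.1%, 35.3%, 53.9% and 37.0% of NK cells, and in 61.8% of sham NK cells before the reduction. In all, 7 of the 8 genes in NK cells, 4 in CD8 T cells (Gzmk, Nkg7, Fasl and Klrk1), 1 in CD4 T cells (Nkg7) and 1 in γδ T cells (Klrk1) had shares above those of B cells, with intervals apart in every library of at least 20 cells. The exception in NK cells was Gzmk, detected in 0% to 4.35% of them. For Gzma in CD8 T cells the shares were 8.88%, 18.6%, 2.96%, 26.7% and 2.80%. Their intervals were apart from those of B cells at days 3, 14 and 28. At sham the interval of 5.05% to 14.2% (15 of 169 cells) reached into that of B cells, 2.61% to 7.01% (17 of 383). At day 7 that of 1.49% to 5.24% (11 of 371) reached into 0.0908% to 2.68% (2 of 267). Overlap of intervals is no test, so that it does not decide whether these shares lay above background.

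Gzma was concentrated in a smaller share of the CD8 T cells than of the NK cells. The 10% of the CD8 T cells with most Gzma held 98.3% of the Gzma UMIs of the sham library, 90.7% on day 3 and 79.2% on day 14, whereas the top 10% of NK cells held 20.5% to 50.6%. On days 7 and 28 this share was 100% by construction, since 15 of 371 and 8 of 259 CD8 T cells had a Gzma UMI. For Gzmk the top 10% of CD8 T cells held 51.9% to 98.7% of the UMIs. The top 10% of NK cells held 98.3% to 100%, nearly fixed by construction, since at most 35 of 337 (day 3) had a Gzmk UMI. Ifng was at 60.0% to 100% in NK and 75.8% to 100% in CD8 T cells. Its values of 100% again follow from few positive cells, such as 17 of 169 sham CD8 T cells. Nkg7 was spread more evenly than these 3 in CD8 T cells, at 30.2% to 41.0% there and 19.7% to 33.3% in NK cells. Of the 1811 reduced CD8 T cells, 1317 (72.7%) had none of the 3 granzymes, against 32 of 601 NK cells (5.32%). In NK cells the usual combination was Gzma with Gzmb, in 411 cells, and 424 of the 435 Gzmb-positive cells (97.5%) were also positive for Gzma. Gzma was itself found in 558 of the 601 NK cells, so that most cells of any kind in this class had it. In CD8 T cells the combinations were mixed. Gzmk alone was found in 121 cells, Gzma alone in 80, Gzmb alone in 78, and all 3 in 86. Of the 273 Gzmk-positive CD8 T cells, 114 (41.8%) also had Gzma, and this share was 27.8% in sham (5 of 18 cells), 47.3% on day 3, 10.0% on day 7, 52.6% on day 14 and 11.1% on day 28 (2 of 18). Among all CD8 T cells, Gzma was found in 8.88%, 18.6%, 2.96%, 26.7% and 2.80% in the same order. Whether the granzymes occurred together more often than these shares imply was not tested. At the median, NK cells had 4 of the 8 genes, CD8 T cells 1, and CD4 and γδ T cells 0.

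**Figure D3:**
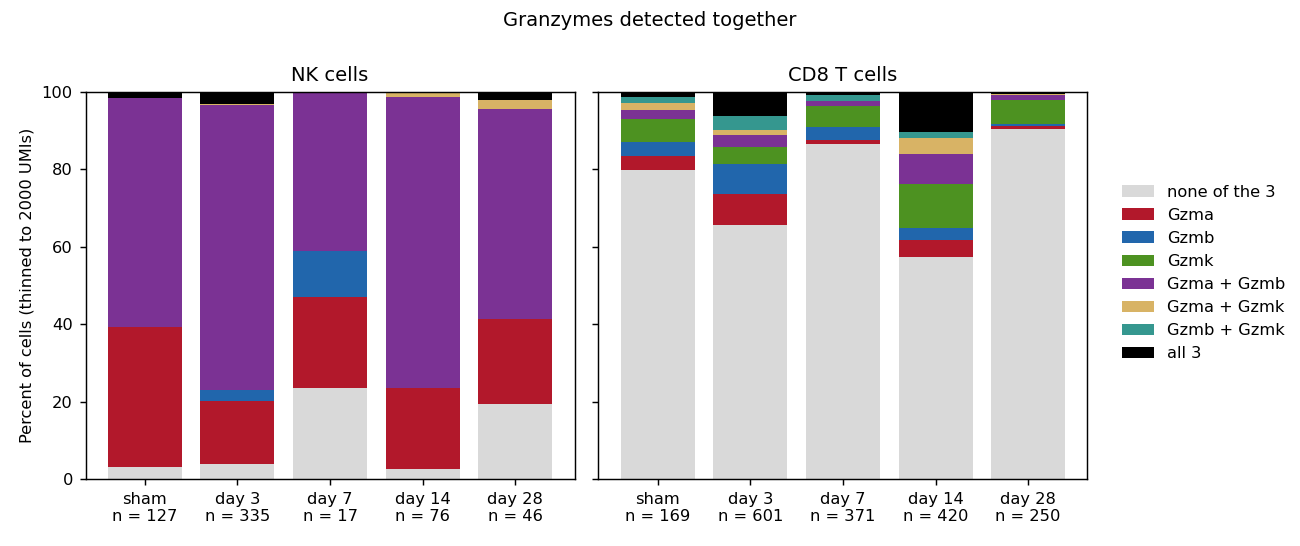
Percent of NK cells (left) and CD8 T cells (right) of each library in which Gzma, Gzmb and Gzmk were detected alone or together, after reduction to 2000 UMIs per cell; n is the number of cells. Gzma with Gzmb fills most of the NK bars, and cells with none of the 3 fill 57.4% to 90.4% of the CD8 bars.

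In CD8 T cells the 3 granzymes had more UMIs per total than in sham on days 3 and 14, whereas the other genes did not all follow. Of the 8 genes, the 6 that reached 50 CPM in the sham library were Gzma, Gzmb, Gzmk, Nkg7, Fasl and Klrk1. On day 3, 3 of these 6 were at least 2-fold apart from sham, all higher, where 6.9% of the 2636 genes at 50 CPM in sham or in the later library were. These were Gzma (2.43-fold), Gzmb (6.2-fold, log2 interval 2.31 to 2.97) and Gzmk (2.24-fold), whereas Fasl was at 0.694 and Klrk1 at 0.778 of the sham level. At day 7, 2 of 6 were apart, Gzma at 0.320 and Fasl at 0.485 of the sham level, where 5.98% of genes were. Few cells set these Gzma levels, since 1 CD8 T cell held 100 of the 297 sham UMIs and 1 held 90 of the 239 of day 7. The other ratios of Gzma in CD8 T cells use the same sham value. At day 14, 4 of the 6 were apart, all higher, where 13.1% of genes were, with Gzma 6.08-fold, Gzmb 2.78-fold, Gzmk 2.89-fold and Klrk1 2.18-fold. Ifng was 2.27-fold higher but reached 50 CPM on day 14 alone, so that its place beyond 2-fold follows in part from that threshold. The median log2 ratio of all genes in CD8 T cells was 0.21 at day 14. By day 28, 2 of 6 were apart, Gzmb at 0.380 and Fasl at 0.297 of the sham level, where 6.44% of genes were. Ifng, below 50 CPM in both libraries, was at 1.10 of the sham level on day 7 and 1.35 on day 28, within counting error. Thus Gzmb had its highest level in CD8 T cells on day 3, and Gzma, Gzmk, Prf1, Ifng, Fasl and Klrk1 had theirs on day 14. The day 7 values come from the library without shallow cells. When its lowest UMI count was made the floor in every library, 2 genes were apart on day 14, against 5 with Ifng counted, and 1 rather than 2 on day 7. By a criterion chosen after seeing the data, CD8 T cells with a UMI of Klrb1c or Tyrobp, genes of NK cells of which Tyrobp is also one of macrophages, were 47.3%, 31.8%, 38.3%, 62.4% and 59.8% of the class from sham to day 28. Without them Gzma was at 364, 478, 135, 1864 and 210.4 CPM in CD8 T cells, so that its day 3 level was less than 2-fold above sham. Gzmb was then at 93.5, 316, 35.9, 213 and 26.1 CPM. Gzmk was at 56.1, 141, 43.6, 204 and 52.2 CPM. Both stayed more than 2-fold above sham on days 3 and 14.

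In NK cells fewer of the genes were apart from sham, and the difference from CD8 T cells was not tested. At day 3 only Gzmb of 7 genes at 50 CPM or more was at least 2-fold apart from sham, 2.90-fold higher with a log2 interval of 1.40 to 1.68, where 6.2% of 3259 genes were. None of the 7 was apart on day 14, where 15.3% of genes were, and on day 28 only Fasl was, at 0.458 of the sham level, where 12.3% of genes were. The 17 NK cells of day 7 were not compared in this way.

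In CD4 T cells, Gzmb and Gzmk had their highest levels on day 3. Gzmb was at 379 CPM against 23.6 in sham (16.0-fold, log2 interval 3.25 to 4.88) and Gzmk at 67.6 CPM against 1.69 (110 UMIs against 1, log2 interval 2.82 to 10.6). The sham value of Gzmb is 14 UMIs in 3 of 110 cells. On day 3, 1 cell held 155 of the 616 Gzmb UMIs, and 1 cell held 34 of the 110 Gzmk UMIs. The intervals do not cover this unevenness between cells. Gzmb and Gzmk both reached 50 CPM on day 3 alone, so that they are given as values and not as a count. Nkg7 and Fasl, the 2 genes at 50 CPM or more in sham, were at 0.647 and 0.524 of its level on day 3, neither 2-fold apart, where 15% of 3050 genes were. At days 7 and 28, Nkg7 and Fasl were lower than in sham, at 0.472 and 0.218 of its level on day 7, where 18.5% of genes were apart, and at 0.145 and 0.283 on day 28, where 8.92% were. None of 2 was apart at day 14, where 13.6% of genes were. In CD4 T cells with a UMI of Foxp3, the factor of regulatory T cells, Gzmb was at 633 CPM on day 3 (51 cells) and at 46.3 on day 7 (98 cells). Gzmk had no UMI in the 208 Foxp3-positive cells of the 5 libraries, which allows up to 1.41 CPM, whereas it had 38.8 CPM in the 764 without Foxp3. At day 3 those without Foxp3 had 201 CPM of Gzmb and 115 CPM of Gzmk, so that Gzmb was counted in both kinds of CD4 T cells and Gzmk in those without a Foxp3 UMI. A Foxp3-expressing cell can lack a UMI of Foxp3, so that the second kind may hold some of the first.

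Other genes of the pathway were counted in lists, to be read against 10.1% of all genes higher and 11.2% lower in NK than in CD8 T cells, and 4.86% and 5.58% in CD8 than in CD4 T cells. Of the other 7 granzymes, only Gzmm passed the filter on low counts, and it was the listed gene most above CD4 T cells in CD8 T cells, by 5.41 ± 0.42 (log2, SE; adjusted p = 4.18e-08, edgeR), with 13.1 to 86.1 CPM against 0 to 1.69. In NK cells Gzmm was lower than in CD8 T cells by -1.30 ± 0.29 (adjusted p = 0.00222, edgeR), on the side of Gzmk rather than Gzma. Of 9 genes of granules and granzyme control, 5 were higher and 0 lower in NK than in CD8 T cells, with Serpinb9, the inhibitor of granzyme B, higher by 3.11 ± 0.22 and Serpinb6b by 2.50 ± 0.23 (adjusted p = 2.22e-09 and 1.02e-07, edgeR). Of 8 genes of exocytosis, 2 were higher and 1 lower in the same comparison, the latter about the share of all genes. The median log2 difference between NK and CD8 T cells was 0.59 for the granule list, 0.27 for exocytosis, 1.35 for the partners of NKG2D, 2.14 for death ligands and cytokines, 1.26 for transcription factors and 0.69 for cytokine receptors, against -0.03 for all genes. Between CD8 and CD4 T cells, 4 of the 9 granule genes were higher, and 1 exocytosis gene was higher and 2 were lower, among them Stx11, a syntaxin needed for granule fusion (-1.60 ± 0.26, adjusted p = 0.000288, edgeR).

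Of 11 partners of NKG2D and related receptors, 8 were higher and 1 lower in NK than in CD8 T cells. Tyrobp, an adaptor of activating receptors, had 2449 to 3337 CPM against 56.1 to 193 (4.39 ± 0.25, adjusted p = 1.19e-10, edgeR), and Cd244 differed by 5.26 ± 0.32 (adjusted p = 1.94e-10, edgeR). Hcst, the adaptor that carries the NKG2D signal, differed by -0.15 ± 0.15 (adjusted p = 0.559, edgeR). Of 8 death ligands and cytokines, 5 were higher and 1 lower in NK cells, the latter Lta at 0 to 0.423 CPM against 4.10 to 5.68, whereas the largest fitted increase was that of Csf2 at 0 to 19.0 CPM. In CD8 T cells, Xcl1 was above CD4 T cells by 5.09 ± 0.90 (adjusted p = 0.000753, edgeR), as was Ccl5, by 3.35 ± 0.45 (adjusted p = 3.98e-05, edgeR). For γδ against CD4 T cells, Xcl1, Klrc2 and Klrc1 were higher by 4.00 ± 1.15, 3.04 ± 0.67 and 2.77 ± 0.77 (adjusted p = 0.0208, 0.00338 and 0.0177, edgeR). Xcl1 varied widely between libraries, at 1.54 to 405 CPM in γδ and 0 to 5.72 in CD4 T cells, so that the classes overlapped. Klrc2 was at 13.9 to 88.6 against 0 to 7.50 CPM and Klrc1 at 13.7 to 158 against 0 to 10.5, without overlap.

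Of 11 transcription factors, 6 were higher and 3 lower in NK than in CD8 T cells. Tbx21 and Eomes, the T-box factors of cytotoxic cells, were higher by 1.96 ± 0.22 and 2.36 ± 0.27 (adjusted p = 1.42e-06 and 1.83e-06, edgeR), whereas Bcl11b, a T cell factor, was lower by -4.16 ± 0.20 (adjusted p = 1.41e-11, edgeR). Runx3, a RUNX factor of CD8 T cells, differed between CD8 and CD4 T cells by 1.23 ± 0.12 (adjusted p = 6.66e-07, edgeR) and between NK and CD8 T cells by 0.02 ± 0.13 (adjusted p = 0.956, edgeR). Of 8 cytokine receptors, 4 were higher and 1, Il7r, lower in NK cells (-3.92 ± 0.25, adjusted p = 5.93e-10, edgeR), and Il2ra was lower in CD8 than in CD4 T cells (-3.28 ± 0.37, adjusted p = 5.49e-06, edgeR) and than in γδ T cells (-3.51 ± 0.41, adjusted p = 2.18e-06, edgeR). Of 8 genes on the side of the target (Fas, interferon-γ receptors and NKG2D ligands), 3 could be tested, and 1 was higher and 2 lower in NK than in CD8 T cells. The NKG2D ligand Raet1e was counted mainly in macrophages and monocytes, at 7.61 CPM in the sham library, 3.85 on day 3, 2.75 on day 7, 2.05 on day 14 and 1.57 on day 28. This class held 493248444 UMIs in all, against 36688724 in conventional dendritic cells, the next largest. A larger count there does not by itself show that Raet1e is particular to macrophages and monocytes.

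The genes most like each of the 8 were ranked by Pearson's r of log2(CPM + 10) over 18 sums of a class in a library, among 4913 genes with at least 50 CPM in 1 of them. These sums share libraries and depth, so that r is a description. Gzma was most like Klre1, Eomes and Klrc2 (r = 0.96, 0.94 and 0.94), and Prf1 was most like Klra3, Klra9 and S1pr5 (0.97, 0.96 and 0.96), which are genes of NK cells. Fasl was most like Stat4 and Tbx21 (0.95 and 0.93) and then Ugcg (0.92), Nkg7 like Klrd1, Dusp2 and Samd3 (0.94, 0.93 and 0.93), and Gzmb like B4galt5, Ubald2 and Sytl3 (0.92, 0.90 and 0.90). Ifng was most like Nod1, Prkcb and Padi2 (0.93, 0.91 and 0.90) and Klrk1 like BC030336, Chsy1 and Rhoq (0.97, 0.93 and 0.92). Gzmk had no close counterpart, with 5730508B09Rik, Peli1 and Ifit1bl1 at 0.77, 0.75 and 0.75. Among the 8 genes themselves the closest pair was Gzma and Gzmb (r = 0.90), and the pair farthest apart was Gzmk and Klrk1 (r = -0.16).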

How the data were processed

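Lung cells labelled as immune cells were profiled by 10x Genomics 3′ v3.1 single-cell RNA-seq. The authors deposited raw UMI counts per gene and barcode, made with Cell Ranger 6.0.0 on mm10 according to the submitters' processing notes and the study's methods, and whole numbers in every matrix fit this unit. Kept barcodes held 300 to 8000 genes, between 800 and 60000 UMIs, and a mitochondrial share below 15%. No doublet call was used to remove cells. Classes were gated on marker UMIs. T cells had at least 2 UMIs of Cd3d, Cd3e and Cd3g and at most 1 of 11 markers of other lineages. CD8 T cells had Cd8a or Cd8b1, CD4 T cells Cd4, and γδ T cells Trdc without Trac, each without the markers of the other classes, and NK cells had at least 2 UMIs of Ncr1 and Klrb1c. T cells in no class numbered 1698.

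UMIs were summed per class and library, expressed as CPM with exact 95% Poisson intervals, and compared between classes within libraries with edgeR 4.0.16 in R 4.3.3 (quasi-likelihood test, TMM, library as a block, sums of at least 20 cells, Benjamini-Hochberg adjustment over all genes tested). The 4 classes of all 5 libraries entered the same fit, so that leaving out a library can change a comparison in which it has no sum. The SE of a log2 fold change is its size over the square root of its F statistic. Shares have exact binomial (Clopper-Pearson) intervals after thinning, and a count of 0 allows up to 3 counts. Intervals cover counting error only. The scripts were tested on simulated data. Alternatives included DESeq2 1.42.0, no TMM, no library block, stricter gates, other filters and each library left out. The 8 genes, the lists and the markers were chosen with earlier results of these data known. Genes named are the 8, the 3 list genes with the largest change in each direction, and the 3 genes with the highest correlation with each of the 8. Serpinb6b, Serpinb9, Ccl5, Hcst, Runx3, Klra8, Tcrg-C1, Cd40lg and Raet1e were named after their values were seen. A planned comparison within CD8 T cells and a division of γδ T cells are not reported here.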

Additional observations from a re-analysis of the deposited data

Results flagged for a closer look

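Gamma delta T cells stood on different sides of CD4 T cells in different libraries for Gzma, Gzmb and Nkg7, and these differences between time points were not tested. The log2 ratio of γδ to CD4 T cells for Gzma was 3.34 on day 3, 1.20 on day 14 and -3.48 on day 7. Few cells carry these values. On day 3, 3 of 23 γδ T cells held 98.5% of the Gzma UMIs, on day 14, 1 γδ T cell held 74 of 122, and on day 7, 1 CD4 T cell held 72 of 85, against 2 UMIs in γδ T cells. The ratio for Gzmb was 0.94 on day 14, -1.51 on day 3 and -2.20 on day 7. On day 14, 1 γδ T cell held 18 of the 32 Gzmb UMIs, and 1 CD4 T cell held 13 of the 16. For Nkg7 the ratio was 2.26 on day 3, -0.49 on day 7, -1.66 on day 14 and -0.91 on day 28. On day 3, 1 of the 23 γδ T cells held 55 of the 147 Nkg7 UMIs.

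Signal was also present on day 3 in cells outside the 4 classes, above the sham library. T cells in no class had 307 CPM of Gzmb, against 67.9 in sham. In a class with markers of type 2 innate lymphoid cells (40 cells on day 3 and 33 in sham), Gzma was at 344 CPM, Gzmb at 1154, Gzmk at 165, Nkg7 at 686 and Klrk1 at 139.7. The sham values were 9.15, 0, 0, 41.2 and 13.7 CPM in the same order. In this class a doublet call marked 6 of the 40 cells on day 3 and 3 of the 33 in sham, and these cells were kept. Whether T or NK cells were among the cells of this class, and how the UMIs were spread over its cells, was not tested. These values are therefore not a measure of the level in type 2 innate lymphoid cells.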

How the results depend on the processing

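No paired analysis was possible between time points because each had 1 library. The comparisons between classes were paired by library, which was a block in each reported test. In the comparisons of NK with CD8 T cells and of CD8 with CD4 T cells, the number of the 8 genes called stayed within 1.5 times of that reported under every alternative. Without the library block the number of all genes called fell to 944 for NK against CD8 T cells, 211 for CD8 against CD4, 563 for γδ against CD4 and 962 for CD8 against γδ, from 1974, 967, 1536 and 1980. It also left 0 of the 8 genes lower in CD8 than in γδ T cells. With the day 7 UMI floor in every library, NK against CD8 T cells had 1252 genes called, and the numbers of the 8 genes apart from sham were 1 in CD8 T cells at day 7, 2 at day 14, and 1 in CD4 T cells at day 7. No filter on low counts gave 2 of the 8 genes higher in γδ than in CD4 T cells. The mean of the CPM of single cells put 2 genes apart in NK cells at day 28 and 1 in CD4 T cells at day 14, as stricter gates also did (1). The causes were not tested.

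Leaving out 1 library gave 1264 to 2032 genes called for NK against CD8 T cells and 463 to 895 for CD8 against CD4, both lowest without day 3, and 751 to 1479 for γδ against CD4, with 751 without day 14 and 914 without day 28. Between 1 and 4 of the 8 genes were then lower in γδ than in CD4 T cells, with 1 without day 14, and 0 to 1 lower in CD8 than in γδ T cells, with 0 without day 3 or day 28. Neither Gzma nor Nkg7 was called as reported between γδ and CD4 T cells, and their log2 differences of 0.92 and -0.16 changed sign under some alternatives. With a library left out, Nkg7 ranged from -1.48 without day 3, where it was called, to 0.38 without day 14, and was at 0.018 and 0.16 without sham and day 28. It was at 0.0057 with no TMM factors and 0.44 with no library block. Gzma ranged from -0.30 without day 3 to 1.90 without day 7, and was at -0.86 with stricter gates and -0.46 with the day 7 floor. Depth limits the genes with few UMIs, such as Gzmk in γδ T cells and Prf1 in CD4 T cells, and the classes with few cells.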

Other observations

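CD8 T cells with a UMI of Mki67 or Top2a, genes of dividing cells, were 11.2% of the class in sham, 14.8% on day 3, 17.3% on day 7, 15.5% on day 14 and 8.11% on day 28. Gzma was at 812, 1432, 101, 2942 and 1289.5 CPM in them and at 163, 417, 79.7, 1263 and 51.1 CPM in the other CD8 T cells. The dividing cells were higher in each of the 5 libraries, with 19 to 89 cells a library, and the difference was not tested. Few cells set some of these values. On day 28, 8 of 259 CD8 T cells had a Gzma UMI, and 1 held 110 of the 264. On day 7, 15 of 371 had one, and 1 held 90 of the 239. Depth was not matched between dividing and other cells.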
